A study of Mus musculus with 23 samples.

Results

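The clustered protocadherins were examined as the enriched regions of 2 histone marks that overlapped chr18:37080001-38020000 in the mouse genome build mm9, a window of 940 kb set to hold the Pcdha, Pcdhb and Pcdhg gene clusters. Of 527177 entries in the 16 region lists of the series, 226 lay in this window: 165 in the 8 full lists and 61 in the 8 enhancer lists, each enhancer region being repeated from a full list. The marks were H3K27ac, an acetyl group on lysine 27 of histone H3 that goes with active promoters and enhancers, and H3K4me2, 2 methyl groups on lysine 4 that go with promoters and enhancers in general, active or not. The tissue was dissected from adult C57BL6J mice at postnatal day 56, with no treatment or transgene named in the labels, and came from 4 subregions: 2 along the midline, the anterior cingulate cortex (ACC) and the retrosplenial cortex (RSC), and the 2 divisions of the entorhinal cortex, lateral (LEC) and medial (MEC). Each subregion and mark had 2 libraries, except MEC H3K4me2 with 1, and 1 list was deposited for them together. The lists therefore carry no spread between animals, and no comparison below has a test across samples. The dissected pieces hold neurons and glia mixed, so a region missing from a list can mean fewer cells with the mark, less of the mark per cell or a library that was too shallow to show it, and these cannot be told apart. The tissues could not be checked against marker genes, because the lists hold positions only and the gene table used here is of another build.

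Clustered protocadherins are cadherin-like adhesion proteins of neurons, which combine at the cell surface into a code that lets the branches of a neuron recognise those of the same cell. Each Pcdha and Pcdhg isoform has its own variable first exon with its own promoter, spliced to constant exons shared by the cluster, whereas each Pcdhb gene is a single exon. Most variable promoters are chosen at random and are active in few of the neurons, while the c-type isoforms at the end of the Pcdha and Pcdhg clusters are expressed widely, and enhancers at a distance from the promoters drive each cluster. In the RefSeq gene table of GRCm38.p6, used only for names and order, 14 Pcdha genes come first, from Pcdha1 to Pcdhac2, then 22 Pcdhb genes, then Slc25a2 and Taf7, then 22 Pcdhg symbols, from Pcdhga1 to Pcdhgc5. Zmat2 is the coding gene before them and Diaph1 the coding gene after them. Gene names were not placed on single regions.

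The enriched regions lay at the 2 sides of the window, with little between. When the full lists of both marks and all subregions were merged wherever regions overlapped by at least 1 bp, the window held 36 elements. They fell into 4 segments separated by gaps of at least 50 kb: 3 elements at chr18:37119776-37182550, 8 at chr18:37248726-37455250, 4 at chr18:37595101-37657475 and 21 at chr18:37802001-38020600. The longest gaps without a region in any list ran for 145 kb, at chr18:37657476-37802000, and for 140 kb, at chr18:37455251-37595100. Of the 36 elements, 25 carried both marks, 3 carried H3K27ac alone and 8 carried H3K4me2 alone. All 8 full lists met at 4 elements, and 7 elements came from 1 list. The same shares were not taken over the genome, so these counts describe the window only.

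**Figure D1:**
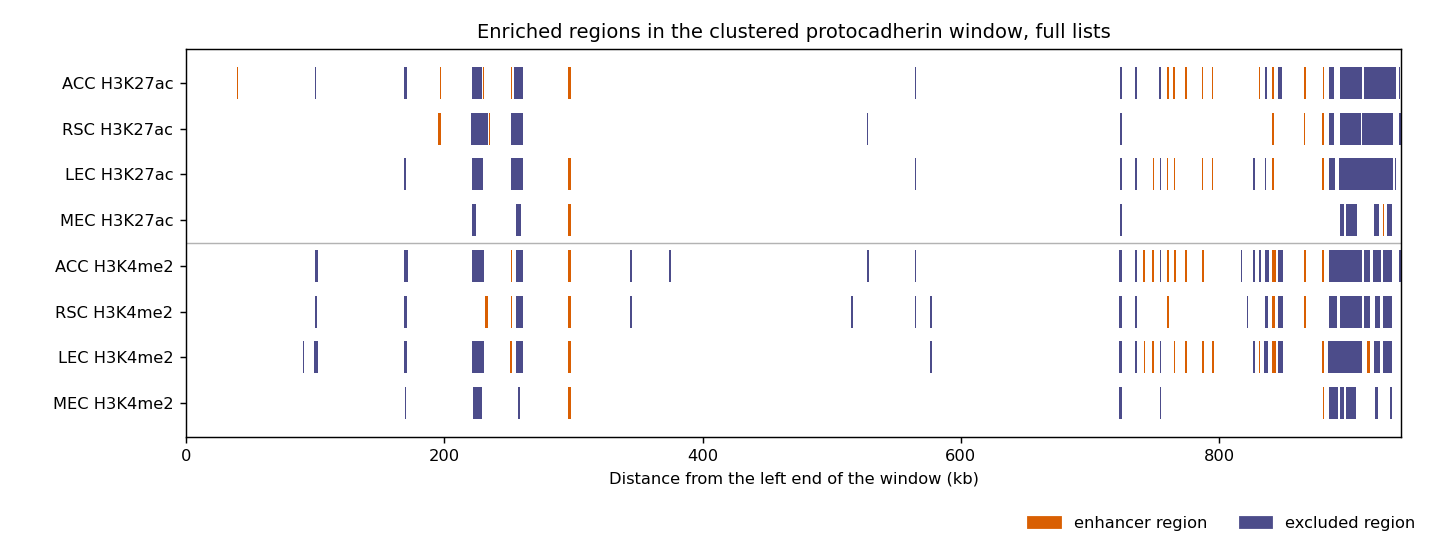
Map of the regions of the 8 full lists, drawn to scale along the window in kb from its left end; each bar is 1 region, coloured by whether it was kept in the enhancer list or left out of it (excluded). The right part of the window, with 21 of the 36 elements, is the most densely filled, and 2 gaps of 145 and 140 kb hold no region in any list.

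ACC had the most regions of both marks and MEC the fewest. In H3K27ac the ACC list had 28 regions in the window, the LEC list 20, the RSC list 13 and the MEC list 9. In H3K4me2 the counts were 13 for MEC, 23 for RSC, 27 for LEC and 32 for ACC. The lists themselves differed in length, and per 10000 regions of each list the window held 3.13 H3K27ac regions in RSC, 3.94 in MEC, 4.75 in LEC and 5.80 in ACC. On the same scale the H3K4me2 values rose from 4.32 in MEC through 4.94 in RSC and 5.60 in LEC to 5.88 in ACC. RSC was thus lowest in H3K27ac by this measure and MEC in H3K4me2.

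Covered length put the subregions in the same order as the number of regions, but for H3K27ac RSC lay closer to ACC by length than by number. H3K27ac regions covered 30.3 kb of the window in MEC, 75.7 kb in RSC, 83.1 kb in LEC and 90.5 kb in ACC. For H3K4me2 the covered lengths were 37.8, 73.2, 93.3 and 105 kb in this order. As a share of the window this was 9.62% for ACC H3K27ac and 11.2% for ACC H3K4me2, against 3.22% and 4.02% in MEC. Across 2799 windows of 940 kb laid end to end along the chromosomes, the median number of H3K27ac regions was 6 for MEC, 10 for LEC, 12 for RSC and 13 for ACC. The RSC count of 13 therefore lay next to its median, while the ACC count of 28 lay at the upper quartile of ACC windows (28). The LEC count of 20 and the MEC count of 9 lay between the median and the upper quartile (24 and 12). For H3K4me2 this also held for RSC, with 23 against a median of 14 and an upper quartile of 27. It held for LEC (27, with 13 and 28) and MEC (13, with 9 and 16), and the ACC count of 32 was at the upper quartile (32). As an alternative added once the values were known, lists were brought to the length of the shortest by keeping the widest regions. The H3K27ac counts were then 9 for MEC, 6 for ACC, 5 for RSC and 4 for LEC, a different order. This cut removes narrow regions by design, so it cannot show what the order by number rests on. Covered H3K27ac stayed lowest for MEC (30.3 kb), while ACC had 63.5 kb, LEC 63.7 kb and RSC 65.9 kb. Covered H3K4me2 kept its order, from 82.0 kb (ACC) through 77.3 kb (LEC) and 64.2 kb (RSC) down to 37.8 kb (MEC).

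In bins of 50 kb the coverage was concentrated at the right end. Of 19 bins, the last being 40 kb long, the MEC H3K27ac regions occupied 5, the RSC ones 8, the LEC ones 9 and the ACC ones 12, and H3K4me2 occupied 7, 13, 11 and 14 in the same order. The bins chr18:37480001-37530000, chr18:37530001-37580000, chr18:37680001-37730000 and chr18:37730001-37780000 held no region in any list. The last bin, chr18:37980001-38020000, was covered by H3K27ac over 15.2 kb in MEC, 33.9 kb in RSC, 35.9 kb in LEC and 36 kb in ACC. This bin had the most coverage in 7 of the 8 full lists. In MEC H3K4me2 the bin before it led with 12.4 kb, against 10.8 kb in the last. On the left side the best filled bin by number of regions was chr18:37330001-37380000, with 19 regions over the 8 lists, 11 of them enhancer and 8 excluded.

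**Figure D2:**
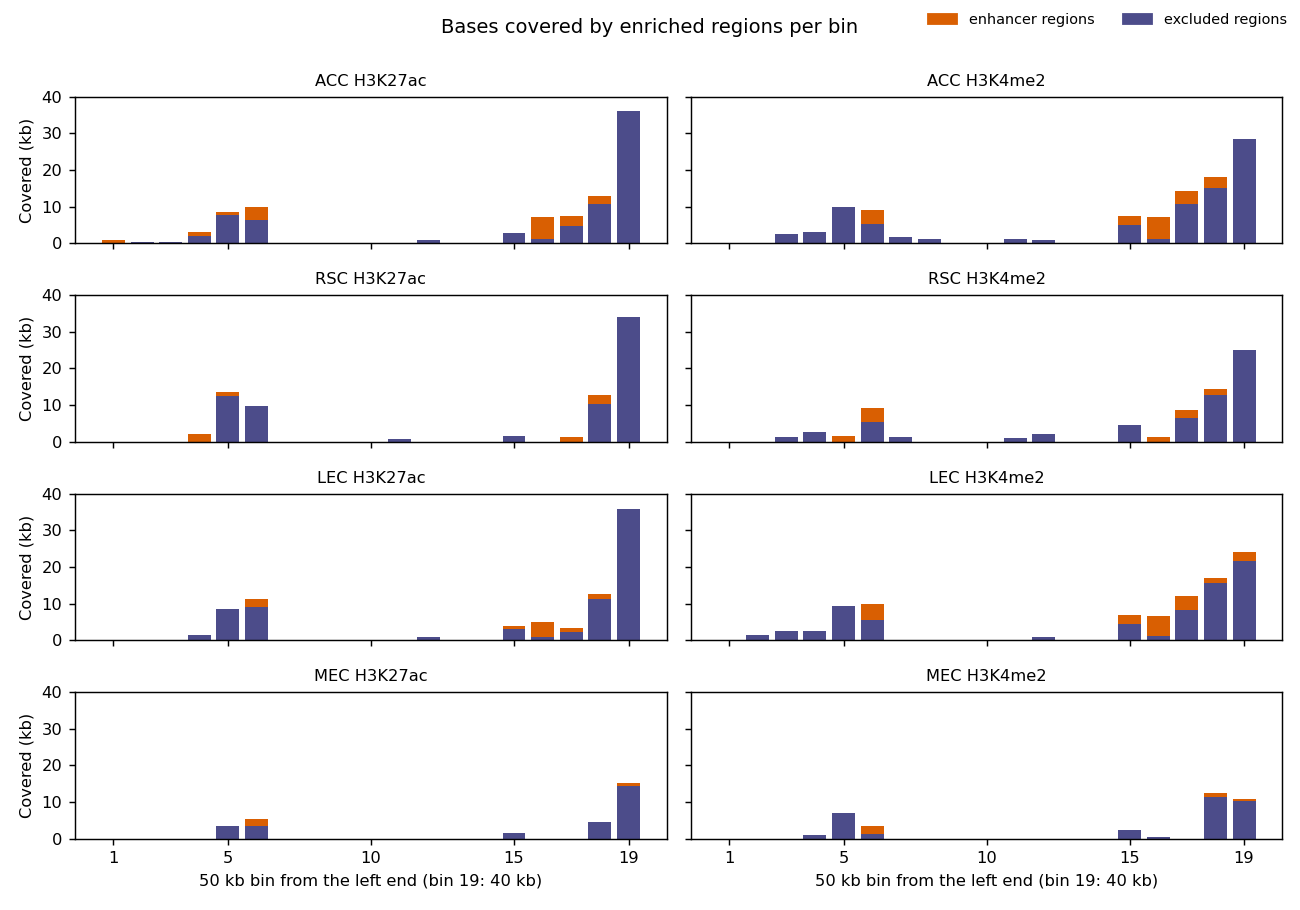
Kilobases covered by enriched regions in each of the 19 bins of 50 kb (the last of 40 kb), for each subregion (rows) and mark (columns), split into enhancer and excluded regions. In 7 of the 8 lists the last bin has the highest bar, up to 36 kb in ACC H3K27ac, and bins 9, 10, 13 and 14 are empty in all.

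The first segment, chr18:37119776-37182550, held few regions, and MEC had none there. Its widest element, chr18:37179526-37182550, carried H3K4me2 in ACC over 2700 bp, in RSC over 1350 bp and in LEC over 3025 bp, and H3K27ac in ACC alone over 900 bp. The other elements of the segment came from 1 list each, chr18:37119776-37120675 from ACC H3K27ac and chr18:37170426-37171450 from LEC H3K4me2. No row of closely spaced regions was seen there.

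The second segment held 2 wide elements, and each was carried in all 8 lists. The first, chr18:37301051-37313550, spans 12500 bp. RSC H3K27ac covered all of it with 1 region, while ACC had a region of 7825 bp and another of 675 bp, LEC a region of 8575 bp and MEC a region of 3425 bp. For H3K4me2 there was 1 region of 9825 bp in ACC, of 9275 bp in LEC and of 7075 bp in MEC. RSC, with the longest H3K27ac region at this place, had H3K4me2 only at its right edge, in a region of 1575 bp at chr18:37311926-37313500 that overlapped no H3K4me2 region of the other subregions. The H3K4me2 stretch of over 7 kb that the other 3 subregions had was thus not listed in RSC.

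The other wide element, chr18:37330901-37341350, showed 2 neighbouring parts. ACC, RSC and LEC had a narrow H3K4me2 region on the left, of 1350, 1400 and 1925 bp, which was kept as an enhancer, and a wider one on the right, of 5175, 5325 and 5400 bp, which was excluded. ACC H3K27ac gave the same split, with 1275 bp kept and 6450 bp excluded. In RSC and LEC H3K27ac both parts were listed as 1 region, of 9825 and 9025 bp, and it was excluded as a whole. MEC had the right part alone, over 3500 bp in H3K27ac and 1375 bp in H3K4me2. Whether the left part counts as an enhancer therefore differed between lists with whether it was joined to its neighbour.

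The element with the most regions in the enhancer lists was chr18:37375876-37378500, of 2625 bp. It was carried in 7 of the 8 lists, and all 7 regions were in the enhancer lists. H3K27ac regions there measured 2250 bp in ACC, 2200 bp in LEC and 2025 bp in MEC, and H3K4me2 regions 2575 bp in ACC, 2550 bp in RSC, 2625 bp in LEC and 2225 bp in MEC. RSC carried H3K4me2 there and had no H3K27ac region. This element gave the widest enhancer region of the window in 5 lists: ACC, LEC and MEC H3K27ac, and RSC and MEC H3K4me2. In RSC H3K27ac the widest was chr18:37275526-37277625, of 2100 bp, an element shared with ACC and without H3K4me2 in any list. Enhancer regions as wide as these were common in the H3K27ac lists, from 45.5% of the ACC enhancer list at 2250 bp or more to 52.8% of the MEC list at 2025 bp or more. In MEC H3K4me2, whose regions are narrow, 4.56% of the enhancer list was at least as wide as its region of 2225 bp.

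Left of these, chr18:37248726-37251800 carried H3K4me2 in all 4 subregions and H3K27ac in ACC and LEC, and all 6 regions were excluded. To the right of chr18:37375876-37378500 regions became sparse. The last elements of the second segment were chr18:37424051-37425650, with H3K4me2 in ACC and RSC, and chr18:37454201-37455250, with H3K4me2 in ACC.

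The third segment held 4 narrow elements of 1050 to 1325 bp, and all of their regions were excluded. Its widest, chr18:37607201-37608525, carried H3K27ac in RSC and H3K4me2 in ACC. The element chr18:37644426-37645475 was listed for H3K27ac in ACC and LEC and for H3K4me2 in ACC and RSC. MEC had no region of either mark in this segment. The middle of the window held only these few elements and the 2 longest gaps.

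**Figure D3:**
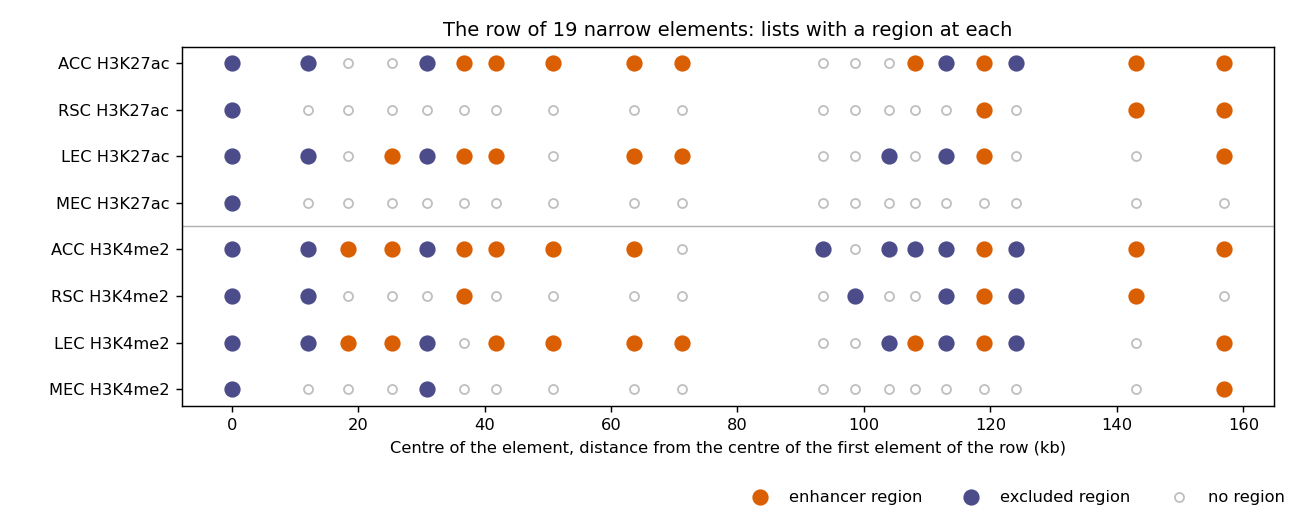
The 19 elements of the row, placed by their centres in kb from the centre of the first (horizontal axis), for each of the 8 full lists (vertical axis); filled points are elements with a region in that list, coloured by enhancer or excluded, and open points have none. ACC and LEC are filled at most positions, with 14 and 12 of 19 in H3K27ac, whereas RSC has 4 and MEC 1.

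A row of narrow, closely spaced elements was visible in the fourth segment. By gene order the Pcdhg cluster is the last of the 3, but its genes were not placed on these elements. Taken as the longest run of elements under 5 kb wide with centres less than 25 kb apart, limits that were set once the values were known, it held 19 elements from chr18:37802001 to 37961300, over 159 kb. The next longest run by these limits had 2 elements. Widths in the row were 600 to 4250 bp with a median of 1550 bp, and the distances between centres were 4.41 to 22.2 kb with a median of 6.14 kb. Of the 18 distances, 13 were under 10 kb. The row starts with an element in all 8 lists, chr18:37802001-37805025, and no other of its elements was listed as often. It ends before the widest element of the window.

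The row elements were carried unevenly by the subregions. Of the 19, ACC carried 14 in H3K27ac and LEC 12, against 4 in RSC and 1 in MEC. The elements were formed from the same lists and the row was picked with its values in view, and 9 of the 19 exist through ACC or LEC regions only, so these counts are a description that is partly fixed by the choice. H3K4me2 gave the same order, with 3 elements for MEC, 8 for RSC, 15 for LEC and 17 for ACC. Every one of the 16 row elements with H3K27ac was listed in ACC or LEC, and 10 in both. Outside the row the H3K27ac lists were closer by number of regions, with 8 each in MEC and LEC, 9 in RSC and 14 in ACC. The RSC count there exceeded that of LEC by 1. These are regions rather than elements, and the widest element of the window gave 5 of them in MEC and 3 each in ACC, RSC and LEC. By covered length MEC and LEC stayed apart outside the row, which held only 1.55 of 30.3 kb in MEC and 13.8 of 83.1 kb in LEC. Neighbouring elements are not independent and the subregions have 1 list each, so these differences describe the lists and were not tested across animals.

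The row regions are narrow, so the ACC ones were set beside ACC regions of like width in the whole genome. Of the 14 ACC H3K27ac regions in the row, 10 were overlapped by LEC, or 71.4%, 4 by RSC, or 28.6%, and 1 by MEC, or 7.14%. In the whole ACC list, among 29675 regions of the same widths (800 to 3150 bp), LEC overlapped 55.9%, RSC 55.1% and MEC 23.5%. At all widths it was 66.1% for LEC, 65.1% for RSC and 34.7% for MEC. With each row region set against ACC regions within 100 bp of its own width, the mean was 45.2% for LEC, 43.7% for RSC and 13.3% for MEC. LEC thus lay above these values in the row and RSC and MEC below. For H3K4me2, LEC overlapped 14 of 17 ACC row regions, RSC 7 and MEC 3, or 82.4%, 41.2% and 17.6%, where 69.0%, 66.1% and 32.9% of 37318 ACC regions of 1075 to 4175 bp were overlapped. The ACC H3K4me2 list at all widths had 68.7% for LEC, 65.8% for RSC and 38.3% for MEC, so only the MEC share was lower in this range. The closer-matched means were 64.2% for LEC, 61.7% for RSC and 26.7% for MEC. Each lay inside the interval of its row share, 59.0 to 93.8, 21.6 to 64.0 and 6.19 to 41.0 in this order. The RSC values of 66.1% and 65.8% lay above its interval. As the row was chosen after its values were seen, these shares carry no test.

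Enhancer and excluded elements both occurred along the row. Of the 19 elements, 10 consisted of enhancer regions only and 8 of excluded regions only. Of the 17 in at least 2 lists, 1 held both classes, where 4.78% of all such elements under 5 kb wide in the genome did. The stretch from chr18:37839526 to 37875575 held 5 neighbouring elements that were enhancers in every list that had them. To its left chr18:37833726-37835050 was excluded in all 5 of its lists, and chr18:37802001-37805025 in all 8. Between those elements, chr18:37814626-37816600 was excluded in 5 lists. There chr18:37821276-37822650 and chr18:37828251-37829475 were enhancers in every list that had them, 2 and 3 lists. Further right the classes alternated: chr18:37914951-37918150 was excluded in 5 lists, chr18:37920651-37924075 was an enhancer in 6, and chr18:37925101-37929350 was excluded in 4. The element with both classes, chr18:37910926-37912000, was an enhancer in ACC H3K27ac over 800 bp and in LEC H3K4me2 over 850 bp, and was excluded in ACC H3K4me2 over 1075 bp. No source used here gives the rule that removed the excluded regions, so the classes cannot be read as promoters and enhancers of named genes.

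Individual row elements illustrate the pattern. At chr18:37844526-37846150, H3K27ac measured 1200 bp in ACC and 1100 bp in LEC, and H3K4me2 1525 bp in ACC and 1250 bp in LEC, with nothing in RSC or MEC. The element chr18:37866376-37868050 had the same 4 lists, with H3K27ac over 1225 bp in ACC and 1050 bp in LEC. At chr18:37945726-37947500 the pair was another: ACC and RSC carried both marks, with H3K27ac over 975 and 925 bp, and LEC had none. The element chr18:37920651-37924075 held the widest enhancer region of ACC H3K4me2, of 3425 bp, and of LEC H3K4me2, of 3000 bp, and was carried by ACC, RSC and LEC in both marks. MEC appeared in the row at 3 elements: the first, in both marks, chr18:37833726-37835050 with H3K4me2 over 500 bp, and the last, chr18:37959801-37961300, with H3K4me2 over 1100 bp.

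The widest element of the window followed the row. It spanned 52.4 kb at chr18:37964401-38016800 and was carried in all 8 lists. Only 74 of 81411 merged elements in the genome were as wide, or 0.0909%. LEC H3K27ac had a single region of 41.7 kb there, chr18:37973076-38014800, which 30 of the 42136 LEC H3K27ac regions equalled or exceeded in width. ACC split the same stretch into regions of 17025 and 25100 bp, and RSC into regions of 16175 and 23475 bp. In MEC the widest H3K27ac region there was 8550 bp.

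H3K27ac covered 37.7% of this element in MEC, 83.2% in RSC, 87.9% in ACC and 90.0% in LEC. H3K4me2 covered 42.3%, 72.3%, 82.1% and 75.6% of it in this order. The element made up between 41.0% of all H3K4me2 coverage of the window, in ACC, and 65.3% of all H3K27ac coverage, in MEC, so it weighs on the covered lengths given above, by more than the rest of the window in 6 of the 8 lists. Nearly all of its regions were excluded: of 33 regions, 3 were enhancers, of 950 bp in MEC H3K27ac, 525 bp in MEC H3K4me2 and 2525 bp in LEC H3K4me2. The LEC one, chr18:37994476-37997000, overlapped excluded H3K4me2 regions of 5100 bp in ACC and 4325 bp in RSC.

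Regions of the window were kept in the enhancer lists less often than the lists as a whole. For H3K27ac, 14 of 28 regions in ACC were enhancers, 50.0% (32.6 to 67.4, a Wilson 95% interval for counting error only, as in later ranges of this kind) against 57.8% in the whole list, and 5 of 13 in RSC, 38.5% (17.7 to 64.5) against 58.4%. In LEC it was 8 of 20, 40% (21.9 to 61.3) against 54.5%, and in MEC 2 of 9, 22.2% (6.32 to 54.7) against 47.9%. For H3K4me2 the ACC share was 34.4% (20.4 to 51.7) against 62.8% in the whole list, and the RSC share 26.1% (12.5 to 46.5) against 61.6%. The LEC share was 44.4% (27.6 to 62.7) against 60.4%, and the MEC share 23.1% (8.18 to 50.3) against 50.0%. All 8 shares were below those of their lists, and the list value lay outside the interval in ACC and RSC H3K4me2 only. The 52.4 kb element alone gave 33 of the 165 full-list regions, 30 of them excluded. For H3K27ac it gave 3 regions each in ACC, RSC and LEC, all excluded, and 5 in MEC, 1 of them an enhancer. For H3K4me2 it gave 4 regions in ACC and 5 in RSC, all excluded, and 4 in LEC and 6 in MEC, with 1 enhancer each. The element enters all 8 lists, so the 8 shares are not independent, and shares without it were not taken. By bases the enhancer share of the window was lower, from 8.79% in RSC H3K27ac to 21.6% in LEC H3K4me2, since the widest regions were excluded.

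**Figure D4:**
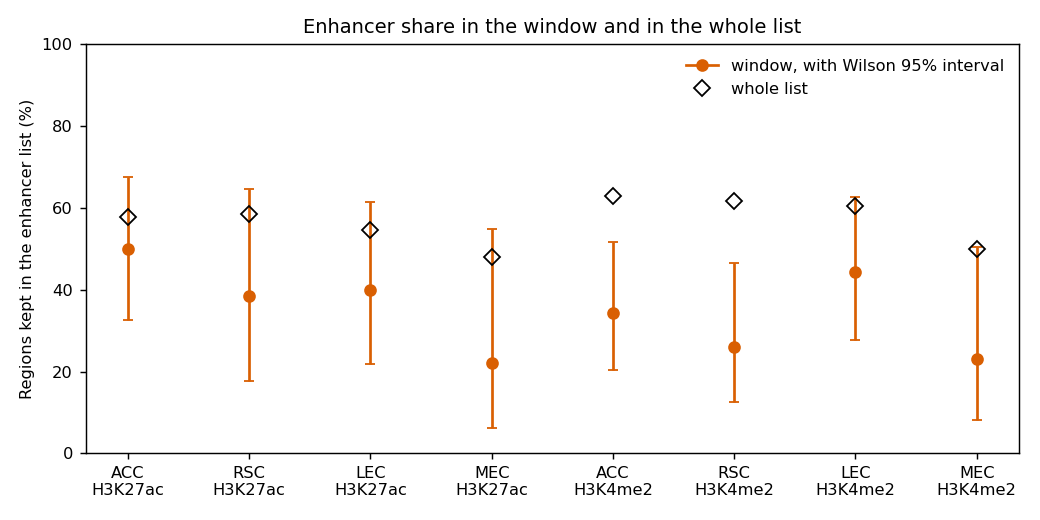
Percentage of full-list regions that were kept in the enhancer list (vertical axis), in the window with Wilson 95% intervals for counting error and in the whole list, for each subregion and mark. All 8 window values lie below the list values, and the list value is outside the interval in ACC and RSC H3K4me2.

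Sharing between subregions was counted on elements merged per mark. Of 29 H3K27ac elements, 9 came from 1 subregion, 31.0% (17.3 to 49.2) against 30.3% in the genome, and 4 from all 4 subregions, 13.8% (5.50 to 30.6) against 19.7%. Another 12 came from 2 subregions, 41.4% (25.5 to 59.3) against 24.7% in the genome, and 9 of these were of ACC with LEC. The rest, 4 elements or 13.8% against 25.3%, came from 3 subregions. Of 38 H3K4me2 elements, 9 came from 1 subregion, 23.7% against 29.5% in the genome, 12 from 2, 31.6% against 23.2%, 10 from 3, 26.3% against 25.6%, and 7 from all 4, 18.4% against 21.7%. The commonest pattern of H3K4me2 was shared by 3 classes with 7 elements each: ACC with LEC, the same with RSC, and all 4 subregions. These combinations, and the 9 H3K27ac elements of ACC with LEC, were not counted over the genome. There, too, ACC with LEC shared the most bases of any pair, 54.1% in H3K27ac and 57.7% in H3K4me2.

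The enhancer lists alone gave fewer elements common to all subregions, as they did over the genome. There the share fell from 19.7% to 9.72% in H3K27ac and from 21.7% to 9.91% in H3K4me2. In the window none of 17 H3K27ac elements was common to all (0 to 18.4), and 8 came from 1 subregion, 47.1% (26.2 to 69.0) against 43.2%. In H3K4me2 1 of 16 was common to all, 6.25% (1.11 to 28.3), and 5 came from 1 subregion, 31.2% (14.2 to 55.6) against 41.0%. Each genome share lay inside its interval. The H3K4me2 element common to all is chr18:37375876-37378500. An element of at least 2000 bp that 1 subregion carried alone in a mark occurred only for ACC H3K27ac, at chr18:37925251-37928400 over 3150 bp, where ACC, RSC and LEC all had H3K4me2. MEC carried no element by itself: each of its 9 H3K27ac and 13 H3K4me2 regions overlapped a region of the same mark in ACC and in LEC. Such overlap was common in the whole MEC lists, where ACC overlapped 80.2% and LEC 77.8% of H3K27ac regions, both inside the interval of the 9 (70.1 to 100). For H3K4me2 the whole-list shares were 76.5% and 75.5%, just below the interval of the 13 (77.2 to 100). But 5 of the 9 and 6 of the 13 regions lay in the 52.4 kb element, so they are not independent. The MEC regions of the window were also wider than their lists, with medians of 3425 against 2200 bp for H3K27ac. For H3K4me2 the medians were 2075 against 1250 bp, and these overlaps were not matched for width.

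Among elements of at least 2 subregions, the enhancer call itself differed between subregions in 3 of 20 for H3K27ac, 15% (5.24 to 36.0) against 9.57% in the genome. For H3K4me2 it differed in 3 of 29, 10.3% (3.58 to 26.4) against 7.50%.

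ACC and LEC shared the most bases in the window. The bases common to a pair of lists, over the bases that at least 1 of them held, were 77.9% for ACC with LEC in H3K27ac, against 54.1% over the genome, and 79.2% in H3K4me2, against 57.7%. RSC with LEC followed in H3K27ac at 70.0% (48.3% in the genome) and ACC with RSC at 65.2% (52.8%). In H3K4me2 the order of these was the reverse, 62.3% for ACC with RSC (55.5%) and 59.0% for RSC with LEC (54.5%). The MEC pairs lay between 33.4% and 39.7%, and RSC with MEC in H3K4me2 was at 33.8%, level with 33.9% in the genome. Left of the 52.4 kb element, an alternative added once the values were known, ACC with LEC still shared more than in the genome, 63.2% in H3K27ac and 73.3% in H3K4me2. There the other pairs were all below their genome values: in H3K27ac RSC with LEC shared 48.0% and ACC with RSC 42.1%, and in H3K4me2 ACC with RSC shared 46.0%, RSC with LEC 42.0% and RSC with MEC 15.9%. Region by region, LEC overlapped 19 of the 28 ACC H3K27ac regions, 67.9% against 66.1% of the whole ACC list, and RSC overlapped 13, 46.4% (29.5 to 64.2) against 65.1%.

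**Figure D5:**
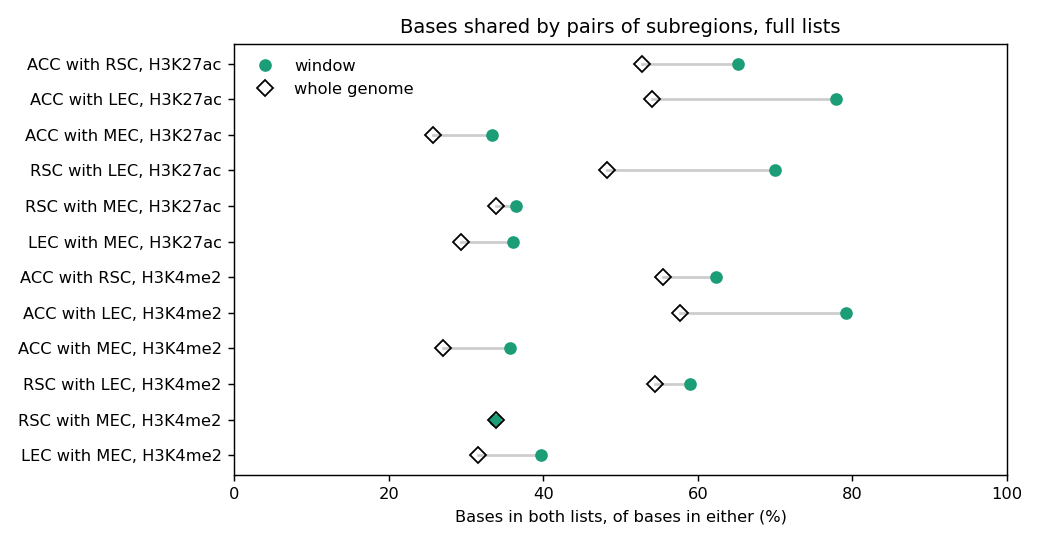
Percentage of the bases held by at least 1 list of a pair that both lists held (horizontal axis) for the 6 pairs of subregions and both marks, in the window and over the whole genome, from the full lists. The ACC and LEC pair is highest in both marks, at 77.9% and 79.2%, and the MEC pairs are lowest.

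The marks coincided at most H3K27ac regions. H3K4me2 of the same subregion overlapped 25 of 28 H3K27ac regions in ACC, 89.3% (72.8 to 96.3) against 69.1% of the whole list, and 17 of 20 in LEC, 85.0% (64.0 to 94.8) against 70.3%. In MEC it was 8 of 9, 88.9% (56.5 to 98.0) against 62.2%. In RSC it was 8 of 13, 61.5% (35.5 to 82.3) against 64.5%. In the other direction, H3K27ac overlapped 25 of 32 H3K4me2 regions in ACC, 78.1% against 65.8%, 20 of 27 in LEC, 74.1% against 64.5%, 11 of 23 in RSC, 47.8% against 61.2%, and 8 of 13 in MEC, 61.5% against 49.2%. The list values lay outside the interval for ACC H3K27ac alone among the H3K27ac regions. In RSC, 12 of 23 H3K4me2 regions were thus without H3K27ac, among them the enhancer-list region chr18:37375951-37378500 and the row elements chr18:37839526-37841100 and chr18:37914951-37918150.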

How the data were processed

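Of 17 deposited lists of enriched regions, 16 were used, since 1 repeats the MEC H3K27ac enhancer list. The authors used build mm9 and, among other tools, bedtools 2.19.0 and Bowtie 1.1.1, per the submitters' processing notes. The lists are named as reproducible enriched regions, with a number whose meaning was not given. How reproducibility was judged was not stated either, including for MEC H3K4me2 with its 1 library. Beyond these names, no source used here said how regions were called, with which threshold, how libraries were combined or how enhancers were chosen. The deposited files hold region positions, and 14 of them also the region width, but no signal, so depth is unknown. Input libraries were not used.

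Regions overlapping the window were taken whole for counts and clipped to it for covered bases. Coordinates are 1-based. Regions were counted in bins by midpoint. Intervals are Wilson 95% intervals for counting error only. Python 3.11.15 was used, with scipy 1.17.1 and numpy 2.4.6. Merging was tested on simulated data and returned 2000 of 2000 planted elements with the right carriers. The window, the lists of genes and the comparisons were chosen with earlier results of these data known. Named elements were, by rule, the widest of each segment, those in all subregions and both marks, the widest enhancer region of each list, and elements of at least 2000 bp in 1 subregion; further row elements, the bins and the smaller elements were named after their values were seen.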

Additional observations from a re-analysis of the deposited data

How the results depend on the processing

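No paired analysis was possible because each subregion and mark has 1 list for its libraries together, and for the same reason no library could be left out. The lists give no depth, so missing narrow regions cannot be told from unmarked ones. Of 254 alternative values for the main results, 205 stayed within counting error or within 1.5 times, and 49 moved. The cause was not tested except where the alternative itself sets it. Outside this total, the number of lists at each of the 36 elements was retaken from regions of at least 1000 bp, an alternative added once values were known. It moved at 7 elements and stayed at 29. Among the 7, it fell from 4 lists to 1 at chr18:37644426-37645475 and from 4 to 2 at chr18:37945726-37947500. With the window 50 kb shorter at both ends, which cuts off most of the 52.4 kb element, covered H3K27ac was 10.5 kb for MEC, 35.3 for RSC, 40.3 for LEC and 46.7 for ACC, and H3K4me2 20.5, 40.3, 59.3 and 66.3 kb; the MEC region counts became 4 and 8, and RSC with MEC shared 22.7% of H3K27ac bases. Lists cut to the shortest length, keeping the widest, gave 6, 5 and 4 H3K27ac and 14, 15 and 14 H3K4me2 regions in ACC, RSC and LEC. Enhancer shares by bases were 18.7% in ACC, 8.79% in RSC and 11.9% in LEC for H3K27ac, and 18% in ACC and 21.6% in LEC for H3K4me2. In the enhancer lists, elements in every subregion were 0% for H3K27ac and 6.25% for H3K4me2. Without MEC, 36.8% of H3K4me2 elements were in every subregion left. Shared H3K27ac bases in the enhancer lists were 22.8% for ACC with RSC, 47.4% for ACC with LEC, 11.2% for ACC with MEC, 18.5% for RSC with LEC, 0% for RSC with MEC and 18.8% for LEC with MEC. For H3K4me2 they were 17.2% for ACC with MEC, 24.5% for RSC with LEC, 18.6% for RSC with MEC and 16.1% for LEC with MEC. Left of the 52.4 kb element, ACC with RSC shared 42.1% in H3K27ac and RSC with MEC 15.9% in H3K4me2. H3K4me2 overlapped 64.3% of ACC and 50.0% of MEC H3K27ac regions in the enhancer lists, and 100% in MEC among regions of at least 1000 bp. The top bin held 26.0% of ACC and 33.0% of MEC H3K27ac coverage with 25 kb bins, and 54.7% of MEC H3K4me2 coverage with shifted bins. With centres under 15 kb apart, 1 of the alternatives added once values were known (with the shortest-length lists and the part left of the 52.4 kb element), the row had 10 elements, of which ACC carried 8 and RSC 1 in H3K27ac, and ACC 9, RSC 3 and LEC 9 in H3K4me2.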

Other observations

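The flanks of the window differed from each other. In the 50 kb to its left, chr18:37030001-37080000, no list had a region of either mark, and the first region inside the window began 39.8 kb from its left end. In the 50 kb to its right 2 further elements followed the 52.4 kb element. The first, chr18:38036001-38041400, was carried in all 8 lists, and its 9 regions were all in the enhancer lists. The second, chr18:38042176-38045300, was carried in 6 lists with 6 regions, also all enhancers. The window as drawn ends before them.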
